A study of Mus musculus with 8 samples.

Results

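Voltage-gated sodium channel genes were examined in open-chromatin maps of mouse brain. The set holds 8 genes taken from a fixed list of names, out of 21887 protein-coding genes in the gene table: the pore-forming alpha subunits Scn1a, Scn3a, Scn8a, Scn9a and Scn7a and the auxiliary beta subunits Scn2b, Scn3b and Scn4b. Accessible DNA had been mapped by ATAC-seq, in which the transposase Tn5 inserts sequencing adapters where chromatin is open, with 50000 nuclei per aliquot. Of the 8 libraries, 2 came from PLX chow and 2 from control chow mice (C57Bl/6J, chow from postnatal day 20, microdissected dorsal lateral geniculate nucleus or dLGN at postnatal day 32, PLX5562 chow being meant to deplete microglia). A further 2 came from mice lacking Fn14 (Fn14 KO) and 2 from wild-type littermates (Fn14 WT), untreated, on a C57Bl/6J background at postnatal day 27. Their tissue was a coronal section cut from frozen brain, with cortex, hippocampus and dLGN. The labels do not say which allele the knockout carries or whether replicates are separate mice, so the spread between replicates may be technical.

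Sodium channels open when the membrane is depolarised and carry the inward current that starts and propagates the action potential. The alpha subunit forms the pore, and beta subunits, single-pass membrane proteins with an immunoglobulin fold, adjust gating and surface expression. Channels are clustered at the axon initial segment and at nodes of Ranvier, where the anchor protein ankyrin-G, encoded by Ank3, holds them. Scn1a is prominent in inhibitory interneurons, Scn8a is the main channel of mature initial segments and nodes, and Scn3a is used chiefly in the developing brain. Scn9a is best known from peripheral sensory and sympathetic neurons, and Scn7a encodes an atypical channel that senses sodium in glia of the sensory circumventricular organs.

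The window of a gene was its body with 20 kb added on each side. The genes lie on chromosome 2 (Scn3a at 65457118 to 65567591, Scn1a at 66270781 to 66440837, Scn9a at 66480080 to 66635114 and Scn7a at 66673426 to 66784910), on chromosome 15 (Scn8a at 100869863 to 101045938) and on chromosome 9 (Scn3b at 40269216 to 40291618, Scn2b at 45117876 to 45130070 and Scn4b at 45138624 to 45154155), all in mm10. The Scn2b and Scn4b windows share 31447 bp and 1 of their regions. Other coding genes reach into some windows, among them Ttc21b at Scn1a, Fignl2 at Scn8a, Gramd1b at Scn3b, Jaml at Scn2b and Tmprss4 at Scn4b. Exons and introns were not used here, so a region is placed only as inside or outside a gene.

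Each library gave a list of 248989 to 299822 peaks, which merged into 192168 to 218214 regions, and read depth is unknown. In each library the first 50000 regions by −log10 p are called selected, so that all lists had 1 length. Their weakest region had a −log10 p of 25.2 to 33.0 in the dLGN libraries and 13.4 to 21.5 in the section libraries, so the authors' −log10 p and fold enrichment describe a peak within its list, and only ranks are set between lists. Both Fn14 KO libraries lacked the peak over the upper end of Tnfrsf12a, the Fn14 gene, that the other 6 libraries had. As a check of tissue, the thalamic neuron markers summed to 18 to 24 selected regions in dLGN libraries and 11 to 17 in sections. Of these markers only Foxp2 was higher in every dLGN library (means of 12.8 in dLGN and 5.75 in sections), so the check rests mainly on it. Lef1 (5 in dLGN, 3.5 in sections) and Gbx2 (0.5 in dLGN, 0 in sections) leaned the same way without separating. Tcf7l2 leaned the other way, at 3.75 in dLGN and 5.25 in sections. Markers of neurons (31 to 40 in dLGN and 28 to 38 in sections), astrocytes (20 to 24 in dLGN and 19 to 23 in sections), oligodendrocytes (19 to 22 in dLGN and 16 to 27 in sections), microglia (6 to 7 in dLGN and 7 to 10 in sections) and endothelial cells (1 to 2 in dLGN and 1 to 6 in sections) overlapped or met between tissues, and every gene of these lists had a selected region in at least 1 library. In the microglial list the sums were 7 and 6 in PLX chow and 7 and 6 in control chow. The part of cell composition in the results was not tested, and more cells of a type cannot be told apart from more accessible chromatin per cell in these bulk samples.

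The annotated start windows, from 250 bases before to 50 after the start, came from RefSeq (GRCm38.p6) and matched 6 of the 8 genes, Scn8a with 2 starts. The following 5 are shown because they differ in base composition and in accessibility. Capitals mark CG dinucleotides, and each is read 5′ to 3′ on the strand of the gene. The Scn8a window lies at chr15:100870395-100870694 (plus strand), Scn1a at chr2:66440788-66441087 (minus strand), Scn7a at chr2:66784861-66785160 (minus strand), Scn2b at chr9:45117626-45117925 (plus strand) and Scn4b at chr9:45138374-45138673 (plus strand).
Scn8a: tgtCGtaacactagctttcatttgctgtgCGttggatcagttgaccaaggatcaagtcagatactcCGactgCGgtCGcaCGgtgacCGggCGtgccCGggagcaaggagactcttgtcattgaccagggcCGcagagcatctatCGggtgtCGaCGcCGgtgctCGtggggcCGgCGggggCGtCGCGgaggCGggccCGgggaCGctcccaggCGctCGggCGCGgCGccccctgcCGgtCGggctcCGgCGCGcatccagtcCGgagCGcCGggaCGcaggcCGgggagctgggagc
Scn1a: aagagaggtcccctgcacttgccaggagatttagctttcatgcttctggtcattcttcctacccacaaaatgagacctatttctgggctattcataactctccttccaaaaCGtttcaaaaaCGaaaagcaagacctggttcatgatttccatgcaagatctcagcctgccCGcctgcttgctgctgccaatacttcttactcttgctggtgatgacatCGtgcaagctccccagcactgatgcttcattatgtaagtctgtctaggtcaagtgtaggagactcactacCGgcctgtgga
Scn7a: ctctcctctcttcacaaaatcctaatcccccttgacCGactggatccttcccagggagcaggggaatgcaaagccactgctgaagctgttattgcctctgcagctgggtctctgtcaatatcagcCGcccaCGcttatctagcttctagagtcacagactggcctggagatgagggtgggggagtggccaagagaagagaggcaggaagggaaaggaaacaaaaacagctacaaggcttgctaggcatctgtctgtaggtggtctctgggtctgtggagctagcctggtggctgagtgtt
Scn2b: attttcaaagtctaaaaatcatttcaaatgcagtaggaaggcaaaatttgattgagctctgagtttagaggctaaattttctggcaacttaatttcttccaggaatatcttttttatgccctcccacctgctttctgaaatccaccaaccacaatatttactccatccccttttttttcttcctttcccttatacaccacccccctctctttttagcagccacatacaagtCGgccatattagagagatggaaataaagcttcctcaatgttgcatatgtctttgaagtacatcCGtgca
Scn4b: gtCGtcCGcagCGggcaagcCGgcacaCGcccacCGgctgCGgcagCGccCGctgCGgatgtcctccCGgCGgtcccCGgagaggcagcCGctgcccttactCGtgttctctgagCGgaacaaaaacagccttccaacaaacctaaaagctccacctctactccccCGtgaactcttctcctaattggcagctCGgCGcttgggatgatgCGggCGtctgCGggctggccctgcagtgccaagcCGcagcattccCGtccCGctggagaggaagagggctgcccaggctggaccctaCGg

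Starts of like base composition differed in accessibility. The Scn8a window holds 38 CG dinucleotides at 70.0% G and C and was selected in all 8 libraries. The Scn1a window holds only 5 at 47.3% and was also selected in all 8. The Scn4b window has 26 CG dinucleotides at 66.3%, a G and C content at percentile 80.1 of all start windows, and was selected in 0 libraries, although all 8 had a weaker peak there. The Scn2b window, at 38.3% (percentile 7.14) with 2 CG dinucleotides, was selected in 2 libraries. Scn7a, at 54.0% with 3 CG dinucleotides, was selected in 1, and Scn9a, at 57.3% with 9, in all 8. The second Scn8a start, at 100936021 to 100936320, had no peak in any library. Selection in all 8 libraries thus held for 3 of the 7 windows, against 47.6% of the 21263 start windows of coding genes, and 32% of those had no peak in any library.

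Of 4 known promoter motifs, 1 was found in these windows. The GC box GGGCGG was found once, at Scn7a, as its reverse complement, while 46.2% of all start windows hold it on either strand. The TATA box TATAAA (12.6% of all windows), the AP-1 motif TGANTCA (6.99%) and the RE1 core (0.0705%), part of the element bound by the neuronal gene repressor REST, matched none of the 7. Both strands were searched, and none of these motifs is contained in another. The absence of a match says only that these letters are not in the window.

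The start regions fell into a strong and a weak class. At Scn1a the start region (66439682 to 66441315, mm10), which also covers the start of the non-coding gene Gm13629, ranked 16902 and 23027 in PLX chow, 17016 and 21764 in control chow, 32578 and 23140 in Fn14 KO and 22348 and 19803 in Fn14 WT. Its −log10 p was 61.2 to 108 in dLGN and 33.5 to 39.4 in sections, with folds of 6.93 to 8.59 in dLGN and 5.39 to 6.01 in sections. Scn9a, the peripheral channel, had a start region of the same class (66634294 to 66635301), at ranks 17341 to 20272 in dLGN libraries and 17181 to 27168 in section libraries. These values place the Scn9a start among the accessible starts of both tissues, and the ranks of the tissues overlapped at both genes.

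At Scn8a the start region (100869828 to 100871927) ranked 38385 and 29002 in PLX chow, 27451 and 39734 in control chow, 21671 and 22177 in Fn14 KO and 22390 and 24902 in Fn14 WT. Every dLGN library thus ranked it below every section library. The region over the lower end of Scn3b (40268625 to 40270224), the gene of a beta subunit that binds the channel without a covalent bond, was stronger and showed the same order. It ranked 29232, 19351, 30631 and 22184 in the dLGN libraries and 11913, 12580, 13003 and 12403 in the section libraries. For both regions the exact 2-sided permutation p was 0.0286, the smallest that 4 libraries against 4 can give, and the adjusted p over 90691 regions was 0.0505. At the upper end of Scn3a (65567150 to 65567756) the ranks overlapped between tissues, at 37492 to 53647 in dLGN and 31621 to 53631 in sections.

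The weak class held Scn7a and the beta subunit genes Scn2b and Scn4b, whose products are joined to the alpha subunit by a disulfide bond. The Scn4b start ranked 110036 to 129656 in dLGN libraries and 66044 to 114879 in section libraries, with a −log10 p of 6.19 to 8.79 in dLGN and 5.36 to 15.7 in sections. The Scn2b start region (45117702 to 45117922) ranked 36110 and 35708 in Fn14 KO, against 87033 and 72370 in Fn14 WT, and 62159 to 121453 in dLGN. It was selected in the Fn14 KO libraries and in no others. The Scn7a start region (66784650 to 66785184) ranked 47569 and 79314 in PLX chow and 74071 and 58390 in control chow, with a −log10 p of 13.2 to 28.8. In sections it had a weak peak in Fn14 KO 2 (rank 93943) and Fn14 WT 2 (149235) and no peak in the other 2 libraries.

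**Figure D1:**
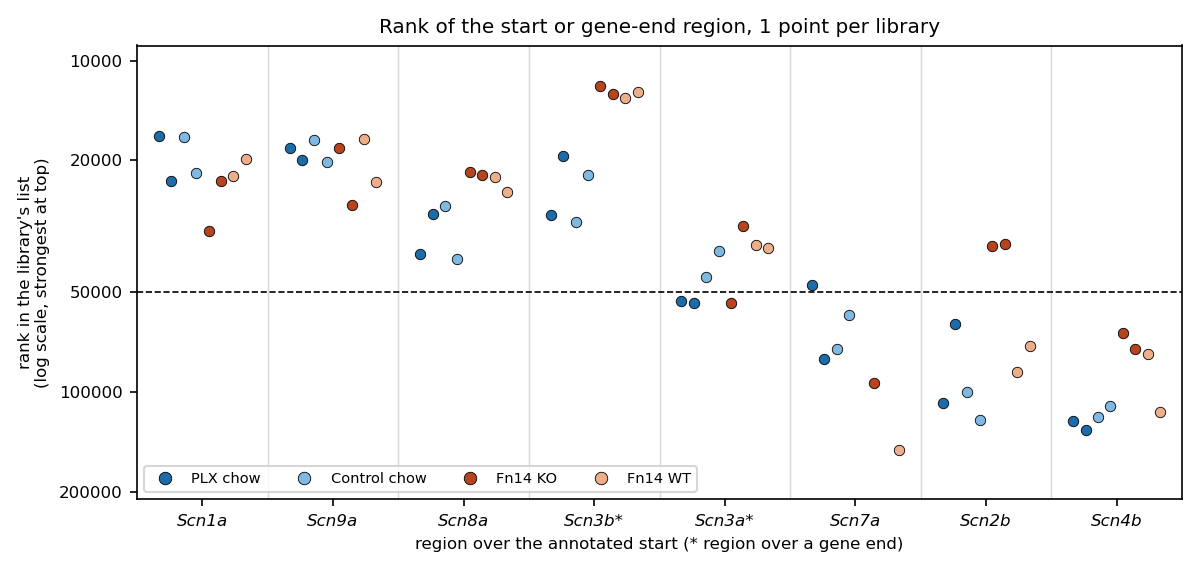
Rank of the region over the annotated start, or over the named gene end for Scn3a and Scn3b (asterisk), in each library. The vertical axis is logarithmic with the strongest region at the top, each point is 1 library, the dashed line is rank 50000, and a library without a peak has no point. Scn1a, Scn9a, Scn8a and Scn3b lie above the line in all 8 libraries, Scn4b below it in all 8, and Scn2b above it in Fn14 KO alone.

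Counts of selected regions followed gene size only in part, and levels between genes are given per 100 kb of window. Scn7a, with a window of 151 kb, stood at percentile 31.0 by count, as did Scn3b with 62.4 kb. Per library, the windows held on average 3.07 selected regions per 100 kb at Scn8a, 2.68 at Scn1a, 2.58 at Scn3a, 1.80 at Scn3b, 1.79 at Scn9a, 1.68 at Scn2b, 0.743 at Scn7a and 0.675 at Scn4b. The median over 21887 genes was 2.92, and the percentiles of the members ran from 20.8 (Scn4b) to 52.1 (Scn8a). By this measure, which was not matched for gene length, sodium channel genes were not dense in selected regions. By count alone the longest genes stood high, with Scn8a at percentile 94.4 and Scn1a at 91.6.

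The 6 subunits best known from brain neurons (Scn1a, Scn3a, Scn8a, Scn2b, Scn3b and Scn4b) were set against Scn9a and Scn7a. With overlapping windows joined and each region counted once, the neuronal windows held 2.10 ± 0.255 selected regions per 100 kb in dLGN and 3.01 ± 0.541 in sections (SD, n = 4 each). The Scn9a and Scn7a windows held 1.67 ± 0.145 in dLGN and 1.01 ± 0.374 in sections. Each of the 8 libraries had the higher density at the neuronal subunits. The gap was narrowest in control chow 1, at 1.82 per 100 kb for the neuronal subunits and 1.74 for Scn9a and Scn7a, and widest in Fn14 KO 1, at 3.63 for the neuronal subunits and 0.58 for Scn9a and Scn7a. The neuronal windows also hold the Ttc21b start, selected in all 8 libraries, and a region over Fignl2, selected in 7. Control chow 1 had 13 regions in the neuronal windows, and without the Ttc21b start its order would turn. PLX chow 2 had 14, at 1.96 per 100 kb against 1.74 for Scn9a and Scn7a. Without both of these regions its order would turn as well. Single genes crossed between the groups, with Scn4b (0.675) below Scn7a (0.743) and Scn2b (1.68) below Scn9a (1.79). This is a description of 2 small gene groups. Within the smaller group, the start region was among the first 50000 of all 8 libraries at Scn9a and of 1 library at Scn7a.

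**Figure D2:**
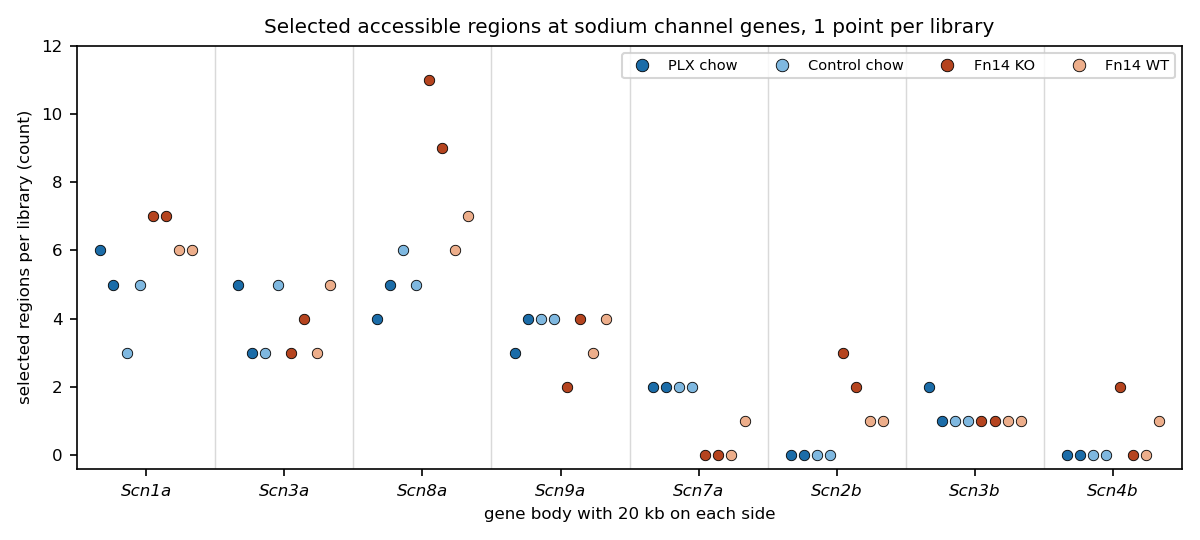
Number of selected regions in the window of each gene, 1 point per library, with the dLGN libraries at the left of each gene and the section libraries at the right. Scn7a has 2 regions in every dLGN library and 0 or 1 in sections, Scn2b has 0 in dLGN and 1 to 3 in sections, and Scn8a is highest in the Fn14 KO libraries, at 11 and 9.

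Together the windows held 46 regions selected in at least 1 library, each counted once, of 90691 such regions in all, and 34 of the 46 lay inside a sodium channel gene. 8 of the 46 (17.4%) were selected in all 8 libraries, against 25.6% of all regions, and 32 (69.6%) had a deposited peak in all 8, against 64.4%. The strongest region of any window was not a sodium channel element. It lay 13390 bp beyond the lower end of Scn1a, over the start of Ttc21b, a gene of intraflagellar transport (66256188 to 66257391), at ranks 118 to 249 in dLGN and 186 to 307 in sections. Of the regions inside the genes, 1 in Scn9a (66579931 to 66580423) had the best median rank of that gene, at 11923 to 29469 in dLGN and 12371 to 24958 in sections, with folds of 8.66 to 16.3 in dLGN and 8.41 to 11.1 in sections. In Scn3a the best was at 65483412 to 65484250, with ranks of 30334 to 67157 in dLGN and 13294 to 17737 in sections.

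**Figure D3:**
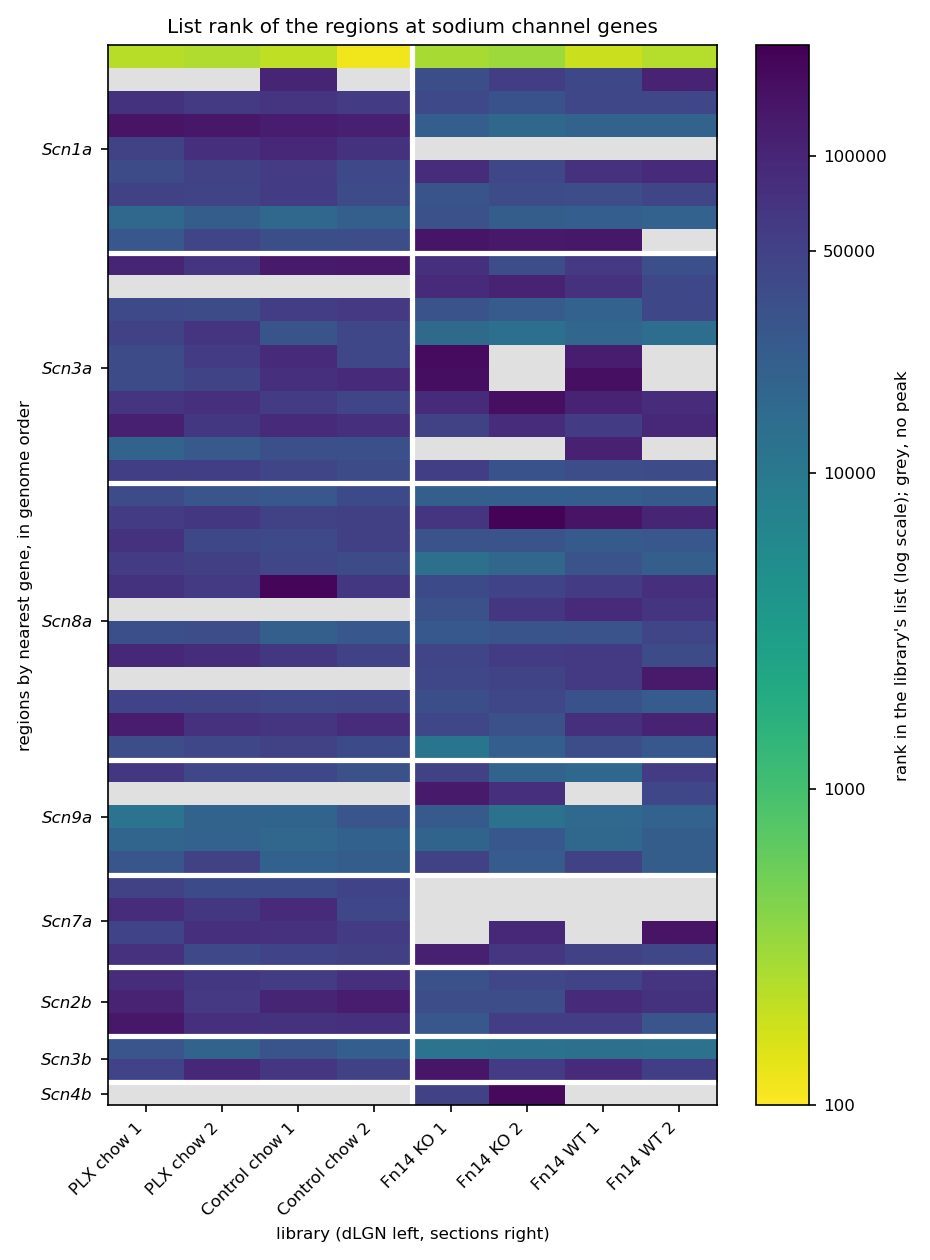
List rank of the 46 regions (rows, by nearest gene and genome order) in the 8 libraries (columns, dLGN left and sections right), on a logarithmic colour scale with light colours for strong regions and grey for no deposited peak. The light top row is the Ttc21b start beside Scn1a, and the grey blocks show Scn7a regions without a peak in sections and Scn8a regions without a peak in dLGN.

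The dLGN libraries were set against the section libraries to ask how these genes differ between the visual thalamus and a section of which it is a part. The 2 sets differ in age, freezing of the tissue and treatment arms as well as in tissue, and these cannot be told apart. All 4 groups enter the comparison. Scn7a had more selected regions in every dLGN library, with 2 in each of the 4, against 0, 0, 0 and 1 in the Fn14 KO and Fn14 WT libraries (2 ± 0 and 0.25 ± 0.5, SD, n = 4 each). Scn2b had fewer, with 0 in each dLGN library, against 3, 2, 1 and 1 in the sections (0 in dLGN and 1.75 ± 0.957 in sections). For both genes the exact 2-sided permutation p was 0.0286 and the Benjamini-Hochberg adjusted p over 18142 genes was 0.184, so neither passed. Over all genes tested, 6.54% had more and 8.95% fewer regions in every dLGN library, so 1 of 8 members in each direction is close to the background. Without the PLX chow and Fn14 KO libraries, control chow had 2 and 2 regions at Scn7a and 0 and 0 at Scn2b, and Fn14 WT had 0 and 1 at Scn7a and 1 and 1 at Scn2b. The median difference was -0.250 regions for the members and 0 for all genes.

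Neither call was free of the settings. With 100000 selected regions Scn7a had 4, 5, 4 and 5 in dLGN, against 1, 5, 1 and 3 in sections, and Scn2b had 2, 4, 4 and 3 in dLGN, against 5, 5, 6 and 4 in sections, so both genes overlapped between tissues. With 25000 both had 0 in every library. Scn2b also lost its call with the gene body alone, with all deposited peaks (7.25 regions in both tissues), with the q-value limit and with lists cut to the shortest. Scn4b was called in its place with all deposited peaks (-2.25) and with lists cut to the shortest (-2.75), each with an exact permutation p of 0.0286.

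At Scn7a the regions themselves differed. The region near the lower end, at 66675108 to 66675595 inside the gene, ranked 49933 and 39423 in PLX chow and 40028 and 47380 in control chow, and no section library had a peak there. It was the only one of the 46 that was selected in every library of 1 tissue and had no deposited peak in the other (2.17% of the members' regions, against 1.05% of all regions for dLGN and 1.90% for sections, where the members had 0). A second region inside Scn7a, at 66737393 to 66737912, had a peak in the 4 dLGN libraries (ranks 43553 to 89847) and in none of the sections. The region of best median rank in this window lay 14697 bp beyond the upper end (66799607 to 66800185) and overlapped between tissues, at 41319 to 75662 in dLGN and 43630 to 114197 in sections. Of the glial lists above, neither astrocyte nor oligodendrocyte sums were separated by tissue. Single astrocyte markers went both ways. Gfap, a filament gene, was lower in every dLGN library, with means of 1.25 in dLGN and 3.25 in sections. Slc1a3 (11.2 in dLGN, 8.75 in sections) and Aqp4 (2.75 in dLGN, 2 in sections) leaned the other way with overlap. Aldh1l1 was near equal, at 7 in dLGN and 7.5 in sections.

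Scn1a and Scn8a had lower means in dLGN, and their libraries overlapped or met. Scn8a had 4, 5, 6 and 5 selected regions in dLGN, against 11, 9, 6 and 7 in sections (5.00 ± 0.816 and 8.25 ± 2.22, SD, n = 4 each; exact permutation p = 0.0571, adjusted 0.324). The libraries met at 6 regions, in control chow 1 and Fn14 WT 1, and leaving out either of these separated the tissues. The tissues also separated at Scn8a with 25000 selected regions (-2.5 regions) and with a window of 50 kb (-5.25), each with an exact permutation p of 0.0286, and met or overlapped under the other planned settings. Scn1a had 6, 5, 3 and 5 in dLGN, against 7, 7, 6 and 6 in sections (4.75 ± 1.26 and 6.50 ± 0.577; exact permutation p = 0.0857, adjusted 0.402). Within the gene body alone, which leaves out the Ttc21b start, Scn1a had 4, 3, 1 and 3 in dLGN, against 6, 6, 5 and 5 in sections, and these did not overlap (exact permutation p = 0.0286). It also separated in the full window without PLX chow 1, at -2.17 regions. With 100000 selected regions the direction at Scn1a turned, at 0.750 regions more in dLGN.

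The remaining genes overlapped at 50000 selected regions. Scn3a had 4 ± 1.15 in dLGN and 3.75 ± 0.957 in sections, Scn9a 3.75 ± 0.5 in dLGN and 3.25 ± 0.957 in sections, Scn3b 1.25 ± 0.5 in dLGN and 1 ± 0 in sections, and Scn4b 0 in dLGN and 0.75 ± 0.957 in sections (SD, n = 4 each). At Scn4b the region of best median rank was the one shared with Scn2b (45121262 to 45122796, inside Scn2b), at ranks 73210 to 137223 in dLGN and 27843 to 55548 in sections. Scn2b's own best region lay 1736 bp before the gene (45115697 to 45116140), at 56627 to 84390 in dLGN and 32570 to 67706 in sections, and its ranks overlapped.

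Regions in the member windows separated by tissue no more often than regions in general. By rank, 10 of the 46 regions (21.7%) stood better in every dLGN library and 12 (26.1%) in every section library, against 27.5% and 29.0% of all regions. Of those better in dLGN, Scn3a held 4, Scn7a 3, Scn1a 2 and Scn8a 1. Of those better in sections, Scn8a held 6, Scn3a 2, Scn1a 2 and Scn3b 1, and the region shared by Scn2b and Scn4b was another. Scn9a had none in either direction. The smallest adjusted p over all regions was 0.0505, so no region passed, while 51304 of 90691 had an unadjusted exact permutation p under 0.05. Scn3a, Scn1a and Scn8a held regions of both directions, although the Scn3a count was nearly equal.

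Among these were regions at Scn1a and Scn3a, chosen after their values were seen. Inside Scn1a the region at 66346031 to 66346625 ranked 148766, 135193, 121972 and 113387 in the dLGN libraries, against 22338, 16333, 19125 and 19445 in the section libraries. Its fold was 2.63 to 3.14 in dLGN and 6.78 to 7.66 in sections. The region at 66443005 to 66443418, 2168 bp beyond the upper end of Scn1a and so before its start, went the opposite way, at 27979, 45159, 34640 and 36114 in dLGN, against 143940, 133127 and 134679 in 3 section libraries and no peak in Fn14 WT 2. Inside Scn3a the region at 65556237 to 65556815 ranked 19390 and 26286 in PLX chow and 34108 and 33607 in control chow. In sections it had 1 peak, in Fn14 WT 1, at rank 109178. Its −log10 p was 44.5 to 77.4 in dLGN and 6.12 in Fn14 WT 1.

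**Figure D4:**
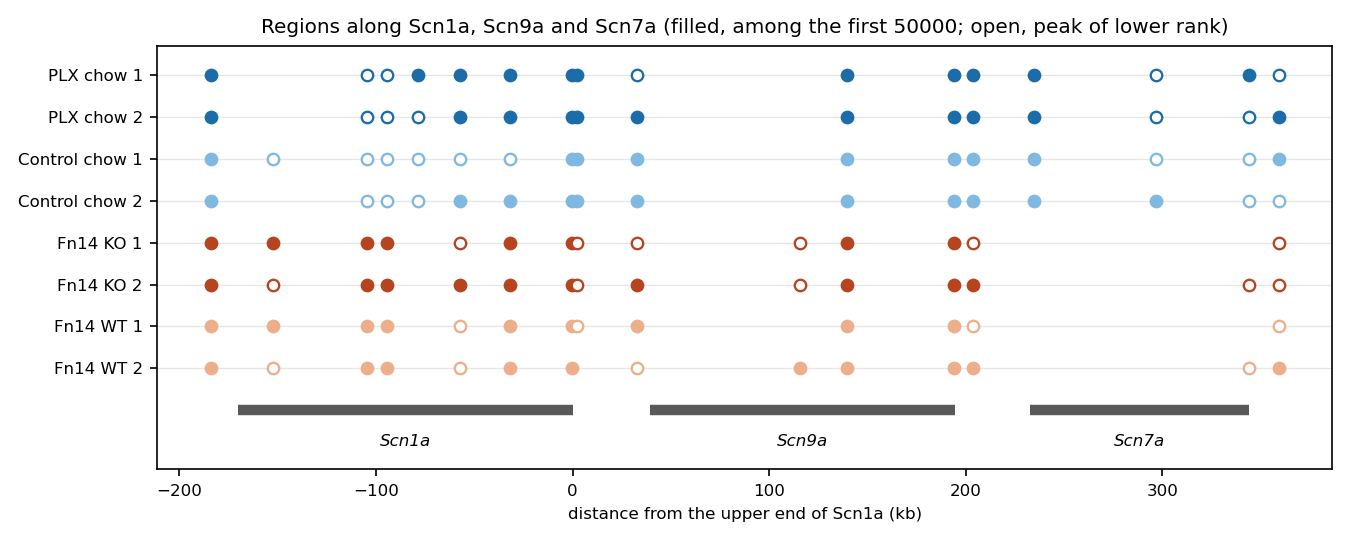
Regions along Scn1a, Scn9a and Scn7a, which lie side by side, by distance from the upper end of Scn1a in kb, with 1 row per library and dLGN rows on top. Filled circles are among the first 50000 of the list, open circles are peaks of lower rank, and no circle means no peak. Scn9a looks alike in both tissues, 2 neighbouring regions in the middle of Scn1a are filled in sections and open in dLGN, and 2 Scn7a regions are missing from all sections.

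The Fn14 KO sections were set against the Fn14 WT sections to ask whether sodium channel chromatin differs without this cytokine receptor. Scn8a had 11 and 9 selected regions in Fn14 KO, against 6 and 7 in Fn14 WT (10.0 ± 1.41 and 6.50 ± 0.707, SD, n = 2 each). Scn2b had 3 and 2 in KO, against 1 and 1 in WT, and Scn1a 7 and 7 in KO, against 6 and 6 in WT. Thus 3 of 8 members stood higher in both Fn14 KO libraries than in either Fn14 WT library and 0 stood lower, against 9.37% and 6.47% of 17690 genes. These shares were not matched for number of regions, and Scn8a and Scn1a stood at percentiles 94.4 and 91.6 by count. The count read against its background moved with the setting: 0 of 8 members had more in KO against 6.26% of genes with 25000 selected regions, 1 against 12.2% with 100000, 2 against 29.1% with all deposited peaks and 2 against 33.3% with the q-value limit. The median difference was 0.250 regions for the members and 0 for all genes. With 2 libraries against 2 the smallest exact permutation p is 0.333, which these genes had, and the adjusted p was 1.00, so the design cannot reach 0.05. The KO lists were the 2 with the most peaks, at 299822 and 299816, against 256323 and 261201 in WT, and their selected regions covered 36.5 and 35.8 Mb in KO, against 32.9 and 33.5 Mb in WT. Cell-type markers also differed by genotype. The astrocyte list summed to 19 and 21 selected regions in KO, against 23 and 23 in WT, while the neuron list (36 and 38 in KO, 36 and 28 in WT), the thalamic list (11 and 16 in KO, 14 and 17 in WT) and the oligodendrocyte list (27 and 16 in KO, 23 and 22 in WT) met or overlapped, as did the microglial (7 and 8 in KO, 10 and 7 in WT) and endothelial lists (6 and 3 in KO, 3 and 1 in WT). Of single markers, Bcl11b, a cortical projection neuron gene, had 7 and 7 regions in KO, against 5 and 4 in WT, and Foxp2 had 3 and 5 in KO, against 7 and 8 in WT. The part of list size, covered length and these markers in the counts was not tested.

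Scn8a kept its direction under every setting, and its difference was 0.5 with 25000 selected regions (3 and 3 in KO, against 2 and 3 in WT, which overlap) and 3.5 with 100000 (17 and 15 in KO, against 13 and 12 in WT). With all merged regions and every list cut to 192168 it was 6.50. Scn1a turned to fewer regions in KO with 25000 (-0.5) and with 100000 (-1). Scn2b had no difference with either, at 0 in every library with 25000 and a mean of 5 in both genotypes with 100000. The window mattered as well. Scn2b overlapped between genotypes with the gene body alone (1 to 2 regions in KO, 0 to 1 in WT), and Scn1a with a window of 50 kb (7 to 8 in KO, 6 to 7 in WT), where Scn4b separated instead (2 to 4 in KO, 1 in both WT libraries).

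Within Scn8a the extra regions of KO lay in the lower part of the selected list. The region at 100960718 to 100961469 ranked 40092 and 48107 in KO, against 58140 and 75772 in WT, and that at 101005494 to 101006076 ranked 43927 and 46072 in KO, against 59915 and 126654 in WT. Another, 74 bp beyond the upper end (101046012 to 101047134), ranked 43549 and 33475 in KO, against 77636 and 106442 in WT. These 3, chosen after their values were seen, were selected in both KO libraries and in neither WT library. All had a deposited peak in both WT libraries. The best single rank was that of Fn14 KO 1 at 101056150 to 101056624, over Fignl2, where KO ranked 11210 and 22453, against 34988 and 27378 in WT. The start region ranked 21671 and 22177 in KO, against 22390 and 24902 in WT, so KO was ahead in both by little. In all, 8 of the 12 Scn8a regions ranked better in both KO libraries and 2 in both WT libraries.

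Over the 43 member regions ranked in a section library, 12 (27.9%) ranked better in both KO libraries and 6 (14%) in both WT libraries, against 18.5% and 20.7% of all regions. The beta subunit gene Scn2b had 2 of the 12, its start region among them, Scn4b had 1, and Scn1a had 1, with 2 better in WT. Scn3a had 1 better in WT and none in KO. 0 of 35 member regions were selected in both libraries of 1 genotype without a peak in the other, for KO or for WT, where the background was 0.0173% and 0.00575%. The smallest adjusted exact permutation p was 0.893, and 0 of all regions had an unadjusted p under 0.05, which 2 against 2 cannot give. Scn3a (3 and 4 regions in KO, 3 and 5 in WT), Scn9a (2 and 4 in KO, 3 and 4 in WT), Scn7a (0 and 0 in KO, 0 and 1 in WT), Scn3b (1 in all 4) and Scn4b (2 and 0 in KO, 0 and 1 in WT) overlapped between genotypes.

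**Figure D5:**
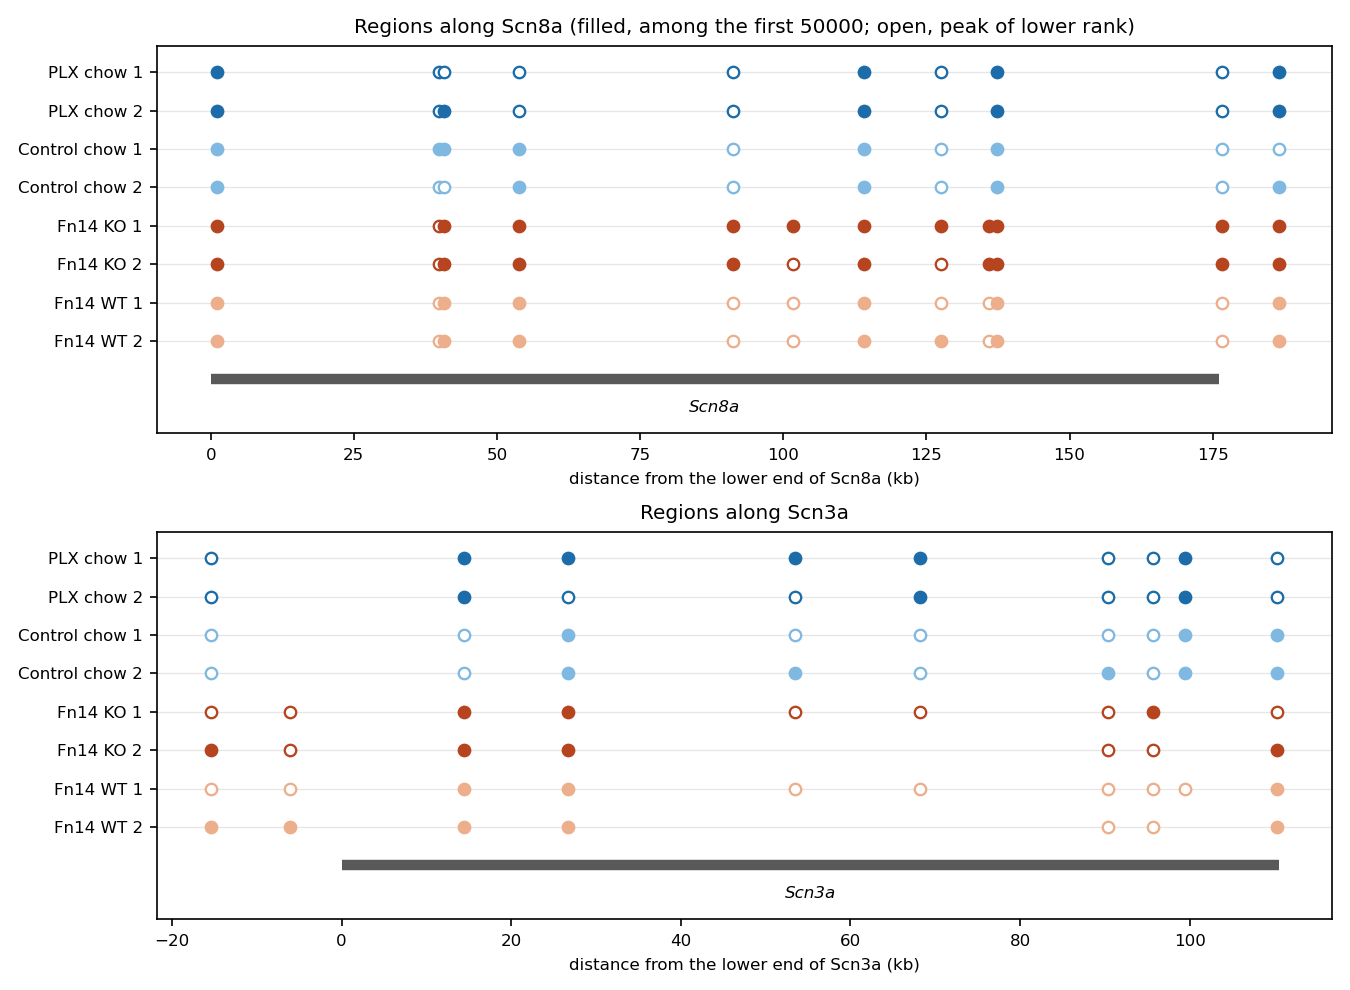
Regions along Scn8a (top) and Scn3a (bottom) by distance from the lower gene end in kb, 1 row per library with dLGN rows on top, drawn as filled circles among the first 50000 of a list and open circles for weaker peaks. Along Scn8a the Fn14 KO rows hold more filled circles than the Fn14 WT rows, and along Scn3a the region near 99 kb is filled in all 4 dLGN rows and nearly absent from sections.

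PLX chow was set against control chow to ask whether sodium channel chromatin in the dLGN differs on a microglia-depleting diet. No sodium channel gene separated the diets: 0 of 8 had more and 0 had fewer selected regions in both PLX libraries, against 3.20% and 3.65% of 17558 genes. Scn1a had 6 and 5 regions in PLX chow and 3 and 5 in control chow (5.5 ± 0.707 and 4 ± 1.41, SD, n = 2 each), and Scn8a 4 and 5 in PLX chow and 6 and 5 in control chow. Scn3a had 5 and 3 in PLX chow and 3 and 5 in control chow, Scn9a 3 and 4 in PLX chow and 4 and 4 in control chow, and Scn3b 2 and 1 in PLX chow and 1 and 1 in control chow. Scn7a had 2 in all 4 libraries, and Scn2b and Scn4b had 0 in all 4. By exact permutation test the smallest p for a member was 0.667, and the adjusted p was 1.00 for each of the 6 members with a region. Of the marker lists, astrocyte sums were 20 and 22 in PLX chow and 23 and 24 in control chow, and endothelial sums 1 and 1 in PLX chow and 2 and 2 in control chow. The endothelial difference lay in Pecam1 alone. Sums met or overlapped for neurons (37 and 37 in PLX chow, 31 and 40 in control chow) and thalamic neurons (23 and 24 in PLX chow, 18 and 23 in control chow). The same held for oligodendrocytes (20 and 22 in PLX chow, 19 and 21 in control chow). Their part in these values was not tested. A p that misses the threshold in 2 libraries against 2 does not show that the diets are alike.

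By rank, 4 of the 41 member regions in dLGN (9.76%) stood better in both PLX libraries and 12 (29.3%) in both control libraries, against 13.6% and 16.7% of all regions. Scn3a held all 4 regions better in PLX chow and 3 of those better in control chow. Scn8a had 5 better in control chow, Scn1a 2 and Scn9a 2, with 0 better in PLX at these 3 genes. The Scn8a region at 100983449 to 100984472, chosen after its values were seen, ranked 34553 and 36366 in PLX chow and 21862 and 27373 in control chow. Every such region had an exact permutation p of 0.333 and an adjusted p of 1.00. 0 of 30 member regions were selected in both libraries of 1 diet without a peak in the other (background 0.00162% for PLX chow and 0% for control chow).

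A list of 14 genes whose products anchor, modulate or accompany these channels at initial segments and nodes was counted in the same way. In the tissue comparison 1 of 14 had more and 3 had fewer regions in every dLGN library (6.54% and 8.95% of all genes), with a median difference of -2 regions. Nalcn, the sodium leak channel, had 10 in each dLGN library, against 7, 6, 5 and 5 in sections. Fgf12 and Fgf14 encode intracellular fibroblast growth factor homologous factors that bind the channel's tail. Fgf12 had 9.75 ± 1.71 in dLGN and 15.8 ± 2.5 in sections, and Fgf14 6.75 ± 0.957 in dLGN and 11.8 ± 1.26 in sections (SD, n = 4 each). Tnr, a matrix protein of nodes and perineuronal nets, had 16.2 ± 2.22 in dLGN and 20.2 ± 0.5 in sections. Each had an exact permutation p of 0.0286 and an adjusted p of 0.184. Ank3 overlapped, at 17, 19, 18 and 16 in dLGN, against 28, 20, 18 and 23 in sections. Between genotypes 2 of 14 had more (Nedd4l and Nalcn) and 2 fewer (Ank2 and Nrcam) in both KO libraries, against 9.37% and 6.47% of all genes. Between diets 1 had more in both PLX libraries (Tnr) and 0 fewer, against 3.20% and 3.65%. None of these shares was matched for number of regions, and most genes of this list stood high by count.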

How the data were processed

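ATAC-seq peak lists of 8 libraries in 4 groups of 2 were used. The authors ran the ENCODE ATAC-seq pipeline on paired-end reads with build mm10, multimapping 0 and a peak p threshold of 0.01, per the deposited instructions. Names of the deposited lists record trimming, removal of duplicate and mitochondrial reads, a Tn5 step and a limit of 300000 peaks. The submitters' processing notes name deepTools 3.5.0 without a step, and for aligner and peak caller the sources used here give no name. Each sample has its own deposited list. Per peak the deposited lists give a score (10 times the −log10 p, at most 1000), a fold enrichment as a ratio over local background, and the −log10 of the p-value and q-value. The depth is unknown.

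Overlapping peaks were merged (Python 3.11.15, numpy 2.4.6, pandas 2.3.3), each region keeping its highest −log10 p, and the 50000 highest were selected per library. Regions were counted in each gene window (gene body and 20 kb, overlap of 1 bp) for 21887 coding genes of the GRCm38.p6 table. The selected regions of all libraries were joined into 90691 regions and ranked in each library, with lists cut to 192168. A gene or region was called when the libraries of both sides did not overlap. Shares over all genes were not matched for gene length or number of regions. Exact 2-sided permutation p-values were adjusted by the Benjamini-Hochberg method over all genes or regions. The functions were tested on simulated lists. Named regions were the start or gene-end region, the region of best median rank and those called for 1 side. Others are named as chosen after their values were seen, or with the region sets they belong to. Partner genes were named where tissues separated, with Ank3 added after its values were seen. Of 7 marker lists, 1 is not reported here. The members and lists were chosen with earlier results of these data known. Alternatives were 25000 or 100000 regions, all peaks, a q-value limit of 0.05, other windows and overlaps, another rule for absence, a replicate block and leaving out each library. Cutting all merged regions to the shortest list was added after seeing the data.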

Additional observations from a re-analysis of the deposited data

Results flagged for a closer look

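In 3 of 16 sets of 4 libraries (8 genes in 2 tissues), 1 library stood apart from 3 that were equal. Scn9a had 3 selected regions in PLX chow 1 and 4 in each other dLGN library. Scn7a had 1 in Fn14 WT 2 and 0 in each other section library. Scn3b had 2 in PLX chow 1 and 1 in each other dLGN library. Each gap is a single region. Chance marks about 1 in 20 sets of continuous values, but among small whole counts 3 equal values set apart any other, and the rate for such counts was not computed.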

How the results depend on the processing

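With 25000 selected regions the member counts were 0 with more in dLGN, 0 with more in Fn14 KO and 0 member regions called for dLGN. With 100000 they were 0 with more and 0 with fewer in dLGN, 1 with more in Fn14 KO, 3 regions called for dLGN and 1 for sections. All deposited peaks and lists cut to the shortest each kept 1 member with fewer in dLGN, but Scn4b in place of Scn2b, and 25000 regions gave Scn8a. All deposited peaks gave 1 member with fewer in Fn14 KO (Scn3a) and 1 with fewer in PLX chow (Scn8a). Cutting all merged regions to the shortest list gave 1 with fewer in Fn14 KO (Scn3a) and 2 with more in PLX chow (Scn9a and Scn7a). A q-value limit of 0.05 gave 0 with fewer in dLGN. A window of 50 kb gave 2 with fewer in dLGN, 1 with fewer in PLX chow (Scn7a) and 1 region called for sections. The gene body alone gave 3 regions ranked better in Fn14 WT, and 1 gene with fewer in dLGN, Scn1a in place of Scn2b. A looser rule for absence gave 3 regions called for dLGN and 1 for sections. The cause of these moves was not tested. The replicate block gave 7 regions ranked better in PLX chow, against 4 without it, and otherwise kept every count within 1.5 times. A check of pairing between same-numbered libraries over 18142 genes gave correlations of 0.0915 (Fn14) and -0.0334 (chow). These are not correlations of the region counts themselves, which were close between libraries. Both were low, so the check gave no sign of pairing by number.

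Leaving out each library gave 1 to 2 members with fewer in dLGN (2 without PLX chow 1, control chow 1 or Fn14 WT 1) and 0 to 2 with fewer in Fn14 KO (1 without Fn14 KO 2, 2 without Fn14 WT 1). It gave 0 to 2 with more in PLX chow and 0 to 2 with fewer (2 and 2 without PLX chow 2, 1 and 1 without control chow 2). Called regions were 1 to 2 for dLGN (2 without Fn14 WT 1) and 0 to 1 for Fn14 KO (1 without Fn14 KO 2). Regions ranked better were 17 to 19 for Fn14 KO, 10 to 12 for Fn14 WT, 8 to 13 for PLX chow and 15 to 20 for control chow. A side of 1 library separates more readily by construction. Among single genes, Scn1a turned to fewer regions in Fn14 KO than in Fn14 WT with 25000 (-0.5) and 100000 (-1) selected regions, all deposited peaks (-1.5), the q-value limit (-1.5) and lists cut to the shortest (-3). Scn2b turned with all deposited peaks (-0.5) and lists cut to the shortest (-0.5). Unknown depth and 2 libraries per group limit all of these comparisons.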
